A study of Mus musculus with 8 samples.

Results

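The tachykinins and their receptors in the mouse striatum are described here as 4 genes: Tac1 and Tac2, which encode the peptide precursors, and Tacr1 and Tacr3, which encode 2 of the receptors. They were chosen by name, with earlier results of these data known. All 4 were in the deposited table of 31417 genes, and all 4 were among the 16511 genes that passed the filter on low counts. Tac4 and Tacr2, the remaining tachykinin genes, did not pass it and are described below. RNA was sequenced from striata of 12-month-old mice, in 4 libraries of Dclk3 knockouts and 4 of wild-type controls, each made from a single striatum. Dclk3 encodes doublecortin-like kinase 3, a kinase enriched in striatal neurons. The labels give the genotype as a Dclk3 knockout without naming the deleted exons, the cells in which the gene was removed or the strain. They number the libraries within each genotype but do not say that each came from a different mouse, so p-values measure the spread between these samples. Total counts ran from 24441242 to 37145559 per library.

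Tachykinins are short neuropeptides cut from larger precursors and released with fast transmitters. The Tac1 precursor yields substance P, the preferred ligand of the NK1 receptor (Tacr1), and, from some transcripts, neurokinin A, the preferred ligand of the NK2 receptor (Tacr2). The Tac2 precursor yields neurokinin B, the preferred ligand of the NK3 receptor (Tacr3). In the striatum Tac1 marks the spiny neurons of the direct pathway, which also carry the D1 dopamine receptor, and the NK1 receptor is known from cholinergic and somatostatin interneurons. All 3 receptors couple to Gq, phospholipase C and calcium release.

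The coding stretches of the 3 peptides are shown because they say what the counts of each ligand gene can and cannot separate. Each is printed 5′ to 3′ from the GENCODE transcripts of GRCm38, and the capitals mark the codons of the carboxy-terminal ending, Phe-X-Gly-Leu-Met, by which tachykinins are recognised.
Substance P in Tac1, chr6:7556732-7556764, plus strand: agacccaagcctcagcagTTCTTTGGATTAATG
Neurokinin A in Tac1, chr6:7559101-7559130, plus strand: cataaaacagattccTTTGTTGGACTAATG
Neurokinin B in Tac2, chr10:127729116-127729145, plus strand: gacatgcacgacttcTTTGTGGGACTTATG
The substance P stretch is in 3 of the 4 annotated coding transcripts of Tac1 and the neurokinin A stretch in 2 of the 4. The neurokinin B stretch is in 2 of the 2 coding transcripts of Tac2. The deposited values are sums over each gene, so the Tac1 count below does not separate transcripts that carry neurokinin A from those that lack it.

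Tac1 was by far the most abundant of the tachykinin genes, and none of the 4 genes differed between the genotypes beyond the spread between libraries. Of the 4 genes, 0 passed the threshold of 0.05 after Benjamini-Hochberg adjustment over all genes tested (edgeR, quasi-likelihood), and 0 had an unadjusted p under 0.05. Among all genes, 1 (0.00606%) passed, Dclk3 itself, and 3.76% had an unadjusted p under 0.05. Dclk3 averaged 22.7 ± 3.55 CPM (read counts relative to the library total, scaled by TMM) in knockout libraries and 94.7 ± 15.8 CPM in wild type (SD, n = 4 each), with no overlap. All 4 tachykinin genes had a log2 fold change above 0, from 0.12 to 0.43 with a median of 0.20, against 49.5% of all genes and a median of -0.0011 over all of them. The genotypes overlapped in each of the 4 genes, while 1.93% of all genes tested had no overlap, 1.07% with the knockout above wild type and 0.86% below. In each of the 4 genes knockout replicate 4 held the highest of the 8 values, which was true of 15.8% of the genes tested. Without that library 3 of the 4 fold changes turned negative.

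**Figure D1:**
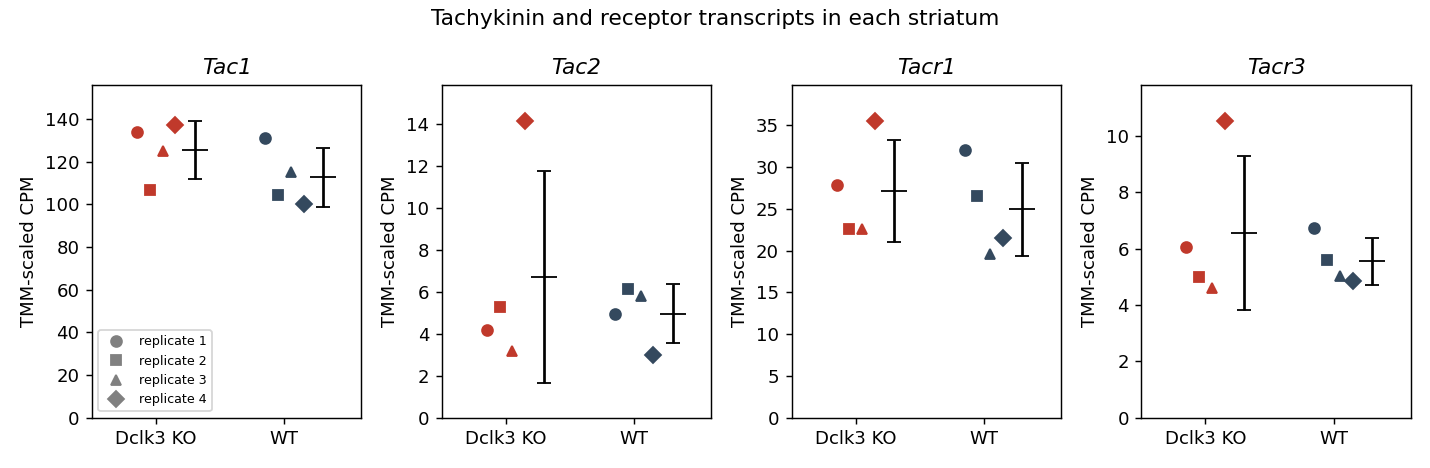
TMM-scaled CPM of Tac1, Tac2, Tacr1 and Tacr3 in each striatum, with Dclk3 knockout left of wild type, 1 symbol shape per replicate number, and the mean ± SD (n = 4) beside each group. Knockout replicate 4 (diamond) is the highest point in every panel, at 137 CPM for Tac1 and 14.2 CPM for Tac2, and the groups overlap in all 4.

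Tac1 (ENSMUSG00000061762, plus strand of chromosome 6, 7554879 to 7565834 in GRCm38, the assembly named mm10) had 134, 107, 125 and 137 CPM in knockout replicates 1 to 4, and 131, 104, 115 and 100 CPM in wild-type replicates 1 to 4. The groups overlapped, with wild-type replicate 1 above 2 of the knockout libraries. The means were 126 ± 13.6 CPM in the knockout and 113 ± 13.8 CPM in wild type (SD, n = 4 each). This gave a log2 fold change of 0.16 (SE 0.10; 95% interval from -0.05 to 0.37; edgeR quasi-likelihood adjusted p = 0.999). As folds, the interval ran from 0.963 to 1.29. Between 2975 and 4358 reads per library lay behind these values, and the coefficient of variation between libraries was 10.8% in the knockout and 12.2% in wild type, the lowest of the 4 genes in each genotype. Without replicate 4 of both genotypes the log2 fold change was 0.06.

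Tac2 (ENSMUSG00000025400, plus strand of chromosome 10, 127724478 to 127731768) was the most variable member. It had 4.18, 5.28, 3.19 and 14.2 CPM in knockout replicates 1 to 4, and 4.93, 6.12, 5.80 and 2.99 CPM in wild-type replicates 1 to 4. Knockout replicate 4, with 388 reads, stood at 3.36 times the mean of the other 3 knockout libraries, while those 3 lay within the wild-type range. The coefficient of variation was 75.3% in the knockout and 28.4% in wild type. The means of 6.70 ± 5.05 CPM in the knockout and 4.96 ± 1.41 CPM in wild type (SD, n = 4 each) gave a log2 fold change of 0.43 (SE 0.50, 95% interval -0.73 to 1.6; edgeR adjusted p = 0.999). As folds, the interval spans 0.601 to 3.03. Without knockout replicate 4 the log2 fold change was -0.24 (SE 0.25), and without replicate 4 of both genotypes it was -0.42 (SE 0.18; edgeR adjusted p = 0.568).

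Tacr1 (ENSMUSG00000030043, plus strand of chromosome 6, 82402334 to 82560104), the substance P receptor, had 27.9, 22.6, 22.6 and 35.6 CPM in knockout replicates 1 to 4, and 32.1, 26.6, 19.6 and 21.5 CPM in wild-type replicates 1 to 4. High and low libraries were found in both genotypes. The means were 27.2 ± 6.16 CPM in the knockout and 24.9 ± 5.59 CPM in wild type (SD, n = 4 each). For Tacr1 the log2 difference was 0.12 (SE 0.19, 95% interval -0.32 to 0.56; edgeR adjusted p = 0.999), and -0.04 without knockout replicate 4.

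Tacr3 (ENSMUSG00000028172, plus strand of chromosome 3, 134829007 to 134934579), the neurokinin B receptor, had 6.07, 4.99, 4.60 and 10.5 CPM in knockout replicates 1 to 4, and 6.73, 5.59, 5.01 and 4.85 CPM in wild-type replicates 1 to 4. Knockout replicate 4 again stood apart, at 2.02 times the mean of the other 3 knockout libraries, which averaged 5.22 ± 0.761 CPM. The means of all 4 were 6.55 ± 2.74 CPM in the knockout and 5.55 ± 0.851 CPM in wild type (SD). For Tacr3 the log2 difference was 0.24 (SE 0.25, 95% interval -0.32 to 0.79; edgeR adjusted p = 0.999), and -0.09 without knockout replicate 4. None of the 4 genes overlaps another annotated gene.

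**Figure D2:**
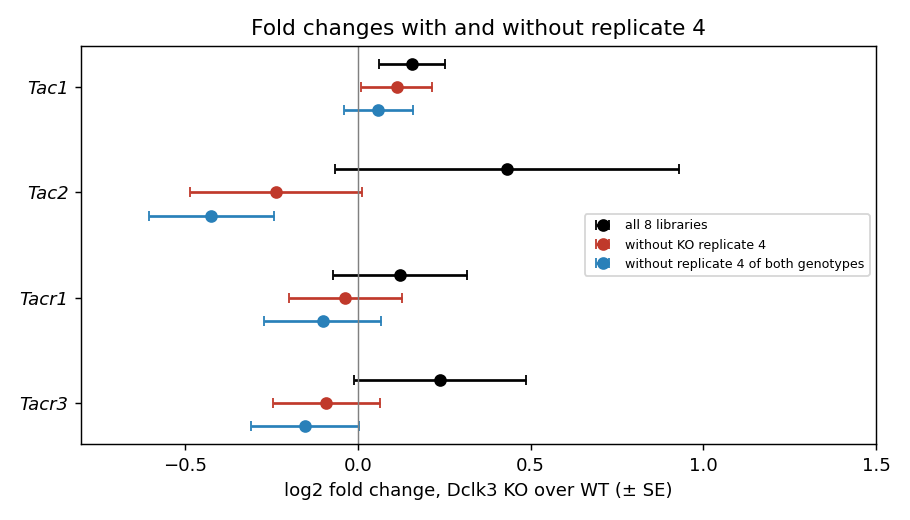
Log2 fold change of each gene, Dclk3 knockout over wild type, with its SE, from all 8 libraries (black), without knockout replicate 4 (red) and without replicate 4 of both genotypes (blue). Tac1 stays above 0 in these 3 fits, at 0.16, 0.11 and 0.06, while Tac2, Tacr1 and Tacr3 lie above 0 with all libraries and below 0 in the other fits.

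The remaining tachykinin genes were at the edge of detection and did not pass the filter on low counts. Tac4, which encodes the hemokinin precursor, had 3 reads over the 4 knockout libraries and 4 over the 4 wild-type libraries, which is 0.0262 CPM in the knockout (exact Poisson 95% interval 0.00541 to 0.0766) and 0.0306 CPM in wild type (0.00833 to 0.0783). Tacr2, the neurokinin A receptor, had 28 reads in the knockout and 32 in wild type, or 0.245 CPM in both (exact Poisson 95% intervals 0.163 to 0.354 in the knockout and 0.167 to 0.345 in wild type). These intervals cover counting error only. Neither gene was tested for a genotype difference in the main fit. At this depth a small difference in Tacr2 would not be seen, nor would a large one in Tac4.

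Levels of different genes were compared as CPM per kilobase of annotated exon. Tac1 had 37 ± 4.0 CPM per kb in the knockout and 33.2 ± 4.06 in wild type. Tac2 had 4.86 ± 3.66 CPM per kb in the knockout and 3.6 ± 1.02 in wild type, and Tacr1 had 4.19 ± 0.948 in the knockout and 3.84 ± 0.861 in wild type. Tacr3 had 1.74 ± 0.727 CPM per kb in the knockout and 1.47 ± 0.226 in wild type (SD, n = 4 each throughout). Tac1 therefore stood first in every library. Tac2 and Tacr1, next in the order, overlapped and could not be ranked. Tacr3 lay below Tacr1 with no overlap in either genotype, its highest values being 2.80 CPM per kb in the knockout and 1.79 in wild type against lowest Tacr1 values of 3.48 in the knockout and 3.02 in wild type. The annotated exons of Tac1 include a long non-coding transcript. Over its longest coding transcript of 1230 bases, Tac1 had 102 CPM per kb in the knockout and 91.7 in wild type, and over one of 852 bases Tac2 had 7.87 in the knockout and 5.82 in wild type.

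**Figure D3:**
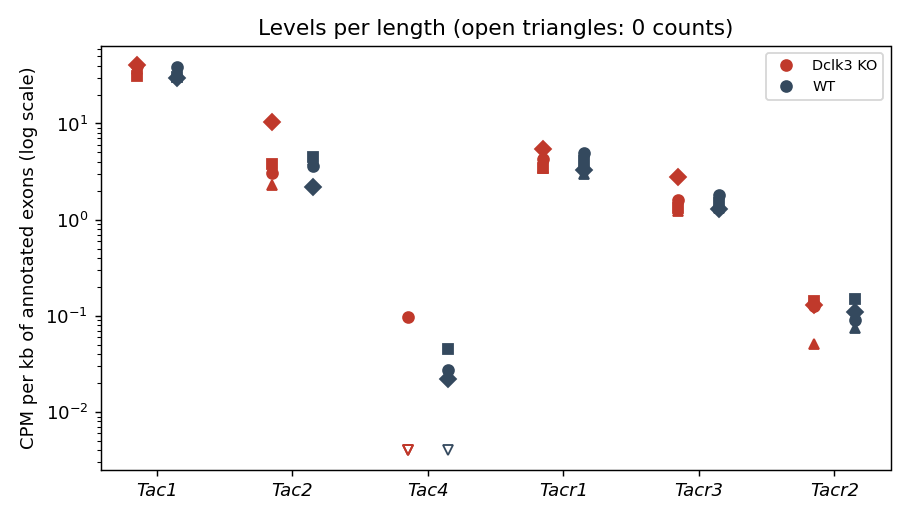
CPM per kilobase of annotated exon on a log axis for the 3 ligand genes and the 3 receptor genes, 1 symbol per library, knockout left of wild type and open triangles for libraries with 0 counts. Tac1 lies between 29.5 and 40.4 CPM per kb, Tac2 (2.168 to 10.3) and Tacr1 (3.02 to 5.48) overlap, Tacr3 lies between 1.22 and 2.80, and Tacr2 and Tac4 lie below 0.15.

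Ratios within a library set Tac1 beside other genes of spiny neurons without any scaling. The ratio of Tac1 to Drd1 counts, both genes of the direct pathway, was 0.660, 0.628, 0.638 and 0.760 in knockout replicates 1 to 4, and 0.633, 0.611, 0.613 and 0.519 in wild-type replicates 1 to 4. A single wild-type library, replicate 1, lay within the knockout range. The means were 0.671 ± 0.0605 in the knockout and 0.594 ± 0.0513 in wild type (SD, n = 4 each), a difference of 0.18 on the log2 scale with p = 0.0571 in the exact two-sided permutation test, or 0.171 after adjustment over the 3 ratios. The smallest p this design allows is 0.0286. The difference was 0.12 without knockout replicate 4 and 0.11 without wild-type replicate 4. The ratio of Tac1 to Penk, the enkephalin gene of the indirect pathway, averaged 0.144 ± 0.00793 in the knockout and 0.135 ± 0.00731 in wild type (SD, n = 4 each; exact permutation p = 0.171, adjusted 0.257). Over all 8 libraries this ratio ran from 0.124 to 0.155. The ratio of Tac2 to Tac1 reached 0.103 in knockout replicate 4, and the other 7 libraries lay between 0.0255 and 0.0586 (exact permutation p = 0.914, adjusted 0.914). The log2 difference between the genotypes in this last ratio was 0.08 with all libraries and -0.33 without knockout replicate 4.

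**Figure D4:**
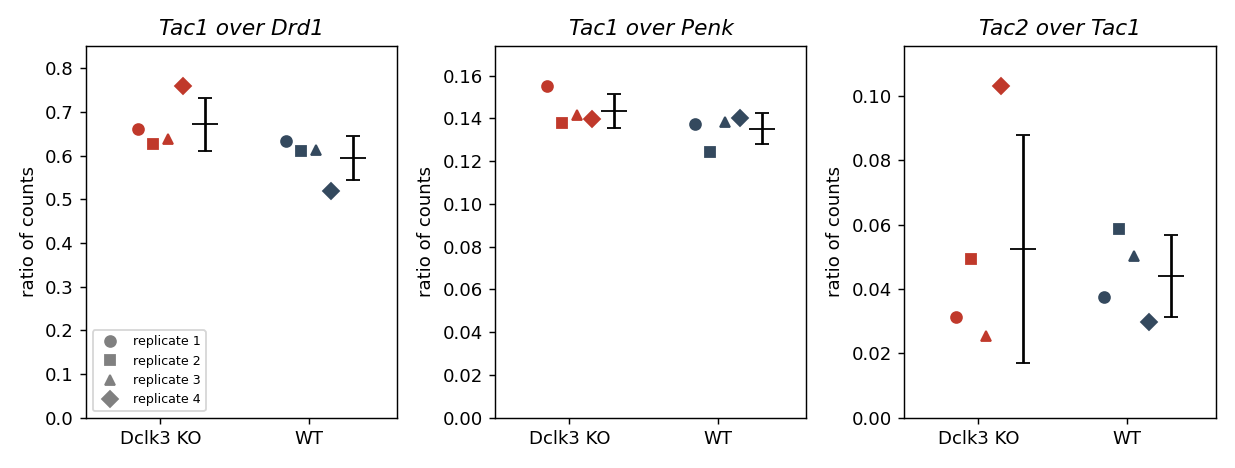
Ratios of read counts within each library for Tac1 over Drd1, Tac1 over Penk and Tac2 over Tac1, with knockout left of wild type, 1 symbol shape per replicate number and the mean ± SD (n = 4). Tac1 over Penk spans 0.124 to 0.155 over all libraries, and knockout replicate 4 is the high point of Tac1 over Drd1 at 0.760 and of Tac2 over Tac1 at 0.103.

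The receptors varied together from library to library. Tacr1 and Tacr3 had Pearson's r = 0.893 over the 8 libraries on the log2 CPM scale (exact permutation p = 0.00067, adjusted over the 6 pairs of members 0.00402) and Spearman's rho = 0.833 (exact permutation p = 0.0154, adjusted 0.0923). The r was 0.805 without the 2 libraries farthest from the median of Tacr1, knockout replicate 4 and wild-type replicate 1, and 0.905 without knockout replicate 4 alone. With the genotype means subtracted it was 0.887. Tac2 and Tacr3, the neurokinin B ligand and its receptor, had r = 0.841 (exact permutation p = 0.0249, adjusted 0.0746) and rho = 0.619 (exact permutation p = 0.115, adjusted 0.172), but r was 0.245 without the 2 farthest libraries, both numbered 4, so the relation rested on them. Tac1 and Tacr1, substance P and its receptor, had r = 0.668 (exact permutation p = 0.0759, adjusted 0.114) and rho = 0.690 (exact permutation p = 0.0694, adjusted 0.166). The other 3 pairs had r between 0.377 and 0.644, with adjusted exact permutation p between 0.114 and 0.385. In bulk tissue, fewer cells of a type and less RNA per cell cannot be told apart.

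Both receptors also varied with the genes of cholinergic interneurons, a relation chosen after the values were seen. These large, sparse cells release acetylcholine, and the list of 6 genes includes Chat (the synthetic enzyme), Slc18a3 and Slc5a7 (the vesicular and the choline transporter), and the transcription factor genes Lhx8 and Gbx2. Their summed level was 69.2, 58.5, 57.5 and 95.7 CPM in knockout replicates 1 to 4, and 82.6, 61.4, 53.8 and 52.4 CPM in wild-type replicates 1 to 4. Knockout replicate 4 and wild-type replicate 1, the highest in Tacr1, were also the highest here. Tacr1 had r = 0.966 with the log2 sum (exact permutation p = 7.44e-05, adjusted over 60 relations of 4 genes with 15 marker lists 0.00446) and rho = 0.976 (exact permutation p = 0.000397, adjusted 0.0119). Leaving out these 2 libraries, also the farthest from the median sum, gave r = 0.909, and leaving out each library in turn gave r between 0.947 and 0.983. Tacr3 had r = 0.940 (exact permutation p = 0.000496, adjusted 0.0149), rho = 0.881 (exact permutation p = 0.00724, adjusted 0.0714), and r = 0.832 without the 2 farthest libraries. Per library, the Tacr1 level was 0.389 ± 0.0131 of the cholinergic sum in the knockout and 0.399 ± 0.0299 in wild type (SD, n = 4 each), although Tacr1 itself spanned 1.82-fold. Slc5a7 made up 52.4% of the sum. Taken singly, these 5 named genes had r with Tacr1 between 0.808 (Slc18a3) and 0.969 (Slc5a7), and with Tacr3 between 0.834 (Slc18a3) and 0.950 (Slc5a7). With Sst, Npy, Nos1 and Chodl, the other interneuron class known for the NK1 receptor, Tacr1 had r = 0.398 (exact permutation p = 0.324, adjusted 0.476) and rho = 0.524 (exact permutation p = 0.197, adjusted 0.381). The 2 correlations of Tacr1 were not tested against each other.

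**Figure D5:**
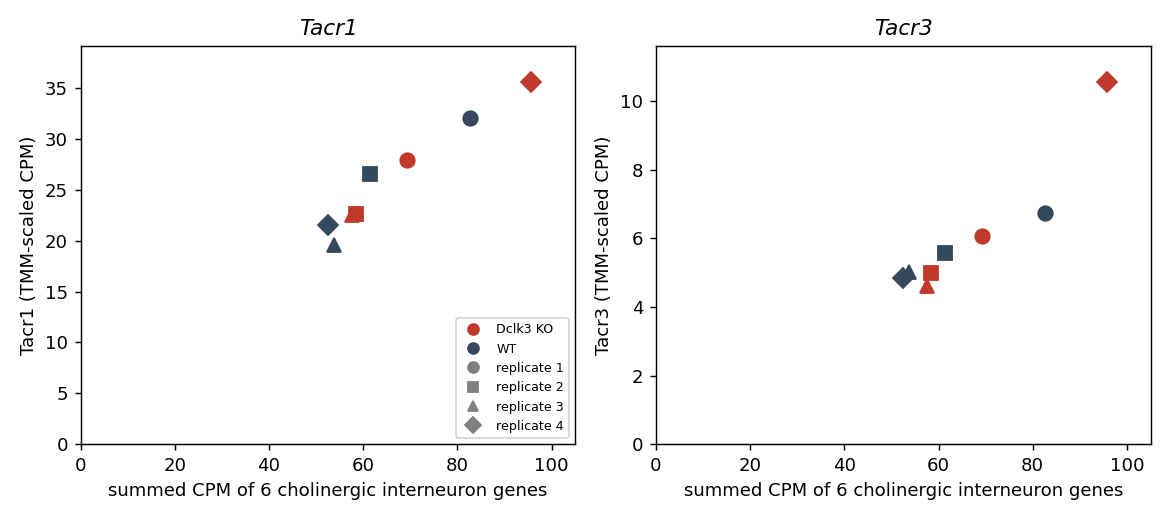
Tacr1 (left) and Tacr3 (right) in TMM-scaled CPM against the summed CPM of the 6 cholinergic interneuron genes, 1 point per library, knockout in red and wild type in dark blue. Knockout replicate 4 (95.7 CPM on the horizontal axis) and wild-type replicate 1 (82.6) lie at the upper right in the Tacr1 panel, and both genotypes fall along the same band.

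Relations from the same family of 60 set Tac1 beside summed markers of other cells. Penk gave most of the indirect-pathway sum, with 774 to 981 CPM in the knockout and 714 to 953 CPM in wild type. Slc17a7 gave most of the cortical sum, with 545.5 to 882 CPM in the knockout and 736 to 1159 CPM in wild type. Tac1 varied with the indirect-pathway sum and against the cortical sum. With the indirect-pathway markers it had r = 0.921 (exact permutation p = 0.00211, adjusted 0.0256; rho = 0.857, exact permutation p = 0.0107, adjusted 0.0714; r = 0.942 without the 2 farthest libraries). With the cortical glutamatergic markers it had r = -0.882 (exact permutation p = 0.00203, adjusted 0.0256; rho = -0.976, exact permutation p = 0.000397, adjusted 0.0119; r = -0.831 without the 2 farthest). With the oligodendrocyte markers it had r = 0.908 (exact permutation p = 0.00213, adjusted 0.0256; rho = 0.952, exact permutation p = 0.00114, adjusted 0.0228; r = 0.907 without the 2 farthest). With its own direct-pathway list the r was 0.799 (exact permutation p = 0.0154, adjusted 0.0709; rho = 0.810, exact permutation p = 0.0218, adjusted 0.109; r = 0.897 without the 2 farthest). Tac2 had r = 0.790 with markers of the olfactory tubercle and ventral striatum (exact permutation p = 0.0116, adjusted 0.068; rho = 0.905, exact permutation p = 0.00456, adjusted 0.0685; r = 0.834 without the 2 farthest). Of the 60 relations, 6 had an adjusted exact permutation p under 0.05 by Pearson's r, the last being that of Tacr3 with microglia markers (r = 0.895, adjusted 0.0446; rho = 0.786, adjusted 0.129; r = 0.531 without the 2 farthest libraries). A further 8 had an adjusted permutation p between 0.05 and 0.1, those of Tac1 with the direct pathway and Tac2 with the tubercle among them. The others follow, each with r and then r without the 2 farthest libraries. Tac1 had -0.812 and -0.866 with medial habenula markers, and 0.818 and 0.721 with microglia markers. Nwd2 gave most of the habenula sum, with 20.0 to 32.3 CPM in the knockout and 25.9 to 43.4 CPM in wild type. The relation without Nwd2 was not tested. Tacr1 had 0.807 and 0.585 with thalamic markers, and 0.819 and 0.395 with microglia markers. Tacr3 had 0.873 and 0.493 with thalamic markers, and -0.793 and -0.324 with cortical markers. Knockout replicate 4 was among the libraries left out for the thalamic, microglia and cortical sums. All of these share libraries and scaling, and the makeup of each dissected striatum as a source of them was not tested.

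The marker lists show how the dissections differed. The medial habenula is rich in Tac1 and Tac2. Of its markers Pou4f1 was at 0.0287 to 0.183 CPM in knockout libraries and 0.0281 to 0.0682 CPM in wild type, with the highest of the 8 values in knockout replicate 4, and Gpr151 at 0.574 to 0.913 CPM in the knockout and 0.646 to 0.989 CPM in wild type, while Nwd2 exceeded 20 CPM in every library. The 6 habenula markers summed to 23.5 to 35.3 CPM in the knockout and 27.6 to 45.7 CPM in wild type, of which Nwd2 gave most. Without Nwd2, singled out after its values were seen, the sums were 2.82 to 3.48 CPM in the knockout, with 2.88 CPM in replicate 4, and 1.73 to 3.67 CPM in wild type. Knockout replicate 4 was highest of the 8 libraries in 6 of 6 thalamic markers, 6 of 8 markers of the bed nucleus, septum and preoptic area, 5 of 6 cholinergic markers, 5 of 6 microglia markers and 4 of 6 oligodendrocyte markers. It was also highest in 3 of 6 tubercle and ventral striatal markers, 3 of 6 endothelial markers, 3 of 8 direct-pathway markers and 2 of 6 astrocyte markers, and in at most 1 marker of each other list. Its thalamic sum was 465 CPM, against 169 to 300 CPM in the other knockout libraries and 165 to 274 CPM in wild type. The tubercle and ventral striatal sum was 542 CPM in knockout replicate 4, 283 to 326 CPM in the other knockout libraries and 252 to 602 CPM in wild type. Wild-type replicate 4, the lowest in Tac1 and Tac2, held 2882 CPM of 5 choroid plexus genes, against 49.1 to 238 CPM in the knockout and 38.2 to 87.4 CPM in the other wild-type libraries. The part of these tissues in the tachykinin values was not tested.

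Other marker sums overlapped between the genotypes unless stated. Direct-pathway genes summed to 416 to 493 CPM in the knockout and 441 to 507 CPM in wild type, and indirect-pathway genes to 1183 to 1410 CPM in the knockout and 1144 to 1462 CPM in wild type. The Sst, Npy, Nos1 and Chodl sum was 255 to 329 CPM in the knockout and 243 to 378 CPM in wild type. The sum of Pvalb, Pthlh, Kit, Th and Crhbp was 120 to 147 CPM in the knockout and 110 to 115 CPM in wild type, without overlap. Taken singly, each of these 5 genes overlapped, 3 with a log2 fold change above 0 and 2 below. Pvalb ran from 47.4 to 84.75 CPM in the knockout and from 44.6 to 52.4 CPM in wild type. Among all genes tested singly, 1.93% had no overlap. Cortical markers summed to 702 to 1157 CPM in the knockout and 949 to 1396 CPM in wild type, and bed nucleus, septum and preoptic markers to 13.5 to 37.9 CPM in the knockout and 19.5 to 49.4 CPM in wild type, with Avp at 0 in a library of each genotype. Prlr alone gave 37.8 of the 49.4 CPM, which was the sum in wild-type replicate 4. Without Prlr, singled out after its values were seen, that library was the lowest of wild type, and the sums were 11.96 to 31.7 CPM in the knockout and 11.5 to 22.7 CPM in wild type. Among glia and vessels, the sums were 5591 to 6126 CPM in the knockout and 5118 to 5688 CPM in wild type for astrocytes, 8677 to 10260 CPM in the knockout and 7109 to 9716 CPM in wild type for oligodendrocytes, 543 to 647 CPM in the knockout and 523 to 598 CPM in wild type for microglia, and 242 to 301 CPM in the knockout and 193 to 263 CPM in wild type for endothelial cells. No member of these 15 marker lists passed the threshold (edgeR, Benjamini-Hochberg), where 0.00606% of all genes did.

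None of the listed genes that make, destroy and transduce tachykinins passed the threshold, and 0.00606% of all genes tested did. A count of 0 in each list is therefore near the share over all genes. Of all genes tested, 49.5% had a log2 fold change above 0, and the median was -0.0011. Of 10 genes of peptide processing and secretion, 0 passed in either direction, 5 lay above 0 and 5 below, and the median log2 fold change was 0.016. Pcsk2, the convertase PC2 that cuts the precursors in dense-core vesicles, averaged 459 ± 33.4 CPM in the knockout and 496 ± 53.6 CPM in wild type (log2 fold change -0.11). Furin, a convertase of the secretory pathway, averaged 31.8 ± 2.40 CPM in the knockout and 35.1 ± 2.86 CPM in wild type (-0.14). Pcsk1n, which encodes the convertase inhibitor proSAAS, had 36.1, 55.0, 24.98 and 59.0 CPM in knockout replicates 1 to 4, and 72.3, 173, 77.5 and 29.5 CPM in wild-type replicates 1 to 4. Its log2 fold change was -1.01 (SE 0.57; edgeR adjusted p = 0.999), and the groups overlapped through wild-type replicate 4. Without wild-type replicate 2, the highest, it was -0.45. Furin, Pcsk1n and Pcsk2 overlap genes on the opposite strand. Whether reads were counted by strand is not stated, so reads of these partners may be counted with them.

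Of 7 peptidases that can degrade tachykinins, 0 passed, 3 lay above 0 and 4 below, with a median of -0.020. Among all genes tested 0.00606% passed and 49.5% lay above 0. Thop1, thimet oligopeptidase, averaged 35.8 ± 2.01 CPM in the knockout and 41.1 ± 5.44 CPM in wild type (SD, n = 4 each), which gave a log2 difference of -0.20 (SE 0.09; edgeR adjusted p = 0.999). Ace, the angiotensin-converting enzyme, had 71.6 CPM in wild-type replicate 4, the library rich in choroid plexus genes. Its other values were 24.7 to 32.1 CPM in the knockout and 25.6 to 30.8 CPM in wild type, and its log2 fold change was -0.45 with that library and 0.03 without it. Ece2, an endothelin-converting enzyme, had 45.4 CPM in knockout replicate 4, 30.0 to 31.7 CPM in the other knockout libraries and 23.98 to 34.9 CPM in wild type. Its log2 fold change was 0.15, and -0.0069 without knockout replicate 4. Ace overlaps a gene on the opposite strand and Ece2 one on the same strand, and reads of either partner may be counted with them.

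Of 17 genes of Gq signalling, 0 passed, 12 lay above 0 and 5 below, with a median of 0.046. The shares over all genes tested were 0.00606% passing and 49.5% above 0. Plcb4, a phospholipase C, averaged 68.4 ± 12.6 CPM in the knockout and 55.3 ± 8.92 CPM in wild type (log2 fold change 0.30), and Prkce, a protein kinase C, 409 ± 38.5 CPM in the knockout and 460 ± 54.2 CPM in wild type (-0.17). Of 9 genes of receptor desensitisation and G-protein regulation, 0 passed, 5 lay above 0 and 4 below, with a median of 0.0014. Rgs2, which shortens Gq signals, averaged 102 ± 11.5 CPM in the knockout and 113 ± 3.06 CPM in wild type (-0.14). Rgs4 averaged 802 ± 63.8 CPM in the knockout and 738 ± 66.6 CPM in wild type (0.12), and Arrb2, a beta-arrestin, 32.0 ± 2.27 CPM in the knockout and 29.6 ± 2.21 CPM in wild type (0.11). Each SD here is over 4 libraries, and each adjusted p was 0.999 (edgeR quasi-likelihood). Prkce and Arrb2 overlap another gene on the same strand.

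The genes whose pattern over the 8 libraries was most like each member, after the genotype means were subtracted, were found among 13279 genes with a mean of at least 1 CPM. They were chosen for their r, which is given as a description. For Tac1 they were Afg1l (r = 0.997), Nudt9 (0.986), Slc25a45 (0.970) and Dcps (0.969), whose products are a mitochondrial ATPase, an ADP-ribose hydrolase, a mitochondrial carrier and an enzyme that removes cap remnants of mRNA. For Tac2 they were Mrap2, an accessory protein of melanocortin receptors (r = 0.988), Tceal3 (0.979), the ribosome rescue gene Pelo (0.974) and Gabrq, the theta subunit of GABA-A receptors (0.971). Gabrq had 5.55 CPM in knockout replicate 4, 1.21 to 1.47 CPM in the other knockout libraries and 0.768 to 2.29 CPM in wild type, a spread like that of Tac2. For Tacr1 they were Elmo1, a regulator of Rac (r = 0.983), Parvb (0.976), Acly, which makes cytosolic acetyl-CoA (0.976), and Amot (0.975), and Slc5a7 held rank 7 and Chat rank 30. For Tacr3 they were Vat1l (r = 0.985), Clmn (0.980), Lgi2 (0.972) and the AMPA receptor partner Shisa9 (0.964), and Slc5a7 held rank 21 and Chat rank 172. The ranks of Slc5a7 and Chat were looked up after the values were seen.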

How the data were processed

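Poly(A) RNA of 8 striata was sequenced from stranded libraries amplified for 12 PCR cycles, per the labels' protocols. The authors deposited raw read counts per Ensembl gene, and the submitters' processing notes name bcl2fastq 2.17.1.14 and build mm10. No source used here names the aligner, counter, annotation or strand setting. Symbols came from GENCODE M21 (31292 identifiers matched, 125 not, holding 0.0436% of counts).

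Genes were kept by filterByExpr (minimum count 10), scaled by TMM and tested in edgeR 4.0.16 (R 4.3.3) with a robust quasi-likelihood model of genotype, adjusted by Benjamini-Hochberg at 0.05. Log2 CPM used a prior count of 2. The fit was tested on simulated data. Members and lists were chosen with earlier results of these data known. The text names the 4 members, Dclk3, up to 3 genes with the smallest p in each pathway list, and the 4 genes most like each member. Some genes under these lists are not reported here. Gpr52, an indirect-pathway marker, was not matched. Alternatives were other size factors, no filter, DESeq2 1.42.0, a replicate block and left-out libraries, which for correlations were added after the data were seen. Poisson intervals are at 95%.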

Additional observations from a re-analysis of the deposited data

Results flagged for a closer look

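In 70 groups of 4 libraries examined, 6 held a single value whose gap to the nearest other exceeded Dixon's 95% limit for the share of the group's range, where chance gives about 1 in 20 groups. Of the 6, 3 fell in wild-type replicate 4 and 2 in knockout replicate 4. Wild-type replicate 4 stood apart in choroid plexus markers (summed 2882 CPM, other wild-type libraries 38.2 to 87.4), in Ace (71.57 CPM, others 25.6 to 30.8) and in the bed nucleus, septum and preoptic markers (summed 49.36 CPM, others 19.5 to 24.4). Of that last sum Prlr alone gave 37.8 CPM, and the other 7 markers summed to 11.5 CPM, against 17.75 to 22.7 CPM in the other wild-type libraries. Prlr was singled out after its values were seen. Knockout replicate 4 stood apart in Ece2 (45.37 CPM, other knockout libraries 30.0 to 31.7) and in the olfactory tubercle and ventral striatal markers (summed 541.8 CPM, others 283 to 326). Wild-type replicate 2 had a log2 ratio of Tac1 to Penk of -3.008, against -2.86 to -2.83 in the other wild-type libraries.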

How the results depend on the processing

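Tac1 kept a positive log2 fold change in all 13 alternatives run (0.060 to 0.24). Leaving out single libraries gave -0.24 to 0.67 for Tac2, -0.036 to 0.26 for Tacr1 and -0.091 to 0.38 for Tacr3, each negative only without knockout replicate 4. Leaving out replicate 4 of both genotypes gave -0.42 for Tac2, -0.10 for Tacr1, -0.15 for Tacr3, 0.092 for Ace, -0.11 for Ece2 and 0.0039 for Pcsk2, all opposite in sign to the values from all libraries. Left-out libraries gave -0.60 to 0.026 for Ace and -0.0069 to 0.22 for Ece2. None of the 4 members and none of the 12 pathway genes passed the threshold in any alternative, with the lowest adjusted p among members 0.568 (Tac2). The log2 ratio of Tac2 to Tac1 ran from -0.33 to 0.35 and was also negative without wild-type replicate 4 (-0.096). Leaving out single libraries gave log2 differences of 0.11 to 0.21 for Tac1 to Drd1. With 4 pairs the exact test of a ratio cannot go below 0.125.

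Over all genes, edgeR called 1 gene, the DESeq2 Wald test 2 (Dclk3 and Malat1), and the fit without replicate 4 of both genotypes 3 (Dclk3, Gpr101 and Gm26917). Single left-out libraries gave 1 to 2, the second gene, without wild-type replicate 1, being 1520401A03Rik. With no filter the 1 gene was Malat1, and Dclk3 had an adjusted p of 0.0647 (edgeR). The genes other than Dclk3 are named after their values were seen. By Pearson's r, the number of member pairs with an adjusted permutation p under 0.05 was 1, and 1 to 3 over left-out libraries. It was 2 without knockout replicate 3 and 3 without wild-type replicate 3. By Spearman's rho, the lowest adjusted permutation p with all libraries was 0.0923. No pairing by replicate number was seen: same-numbered deviations correlated at -0.276 to 0.0532 and differently numbered ones at -0.162 to 0.24. These few values cannot show whether same-numbered samples were handled together. A fit with the replicate block called 1 gene and gave log2 fold changes of 0.16 for Tac1, 0.22 for Tac2, 0.12 for Tacr1 and 0.18 for Tacr3. Causes were not tested. Depth limits Tac4 and Tacr2, and the spread between libraries limits Tac2.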
